A study of Homo sapiens with 9 samples.

Results

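Transcript levels of 9 deubiquitinase genes of the ovarian tumour (OTU) domain family were followed in ES-2 cells, an established human ovarian cancer line. The genes were chosen by name, as the OTU members OTUB1, OTUB2, OTUD1, OTUD3, OTUD4, OTUD5, OTUD6B, OTUD7B and YOD1, out of 32997 genes with a value. All 9 passed the filter on low values that left 16533 genes for testing. The 3 groups were cells with OTUB2 overexpression, cells with SNX29P2 overexpression, a transcribed pseudogene of a sorting nexin gene, and cells with the empty vector, with 3 RNA-seq libraries in each. All cells were ES-2 without further treatment, so the vector is what the overexpression groups are set against. The labels do not describe the constructs, their promoters, or whether the cells were pools or clones. Nothing in them tells whether replicate libraries were grown as separate cultures, and p-values therefore measure only the spread between these libraries, which may be technical.

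Ubiquitin is attached to proteins singly or in chains, and the way its units are linked helps to decide whether a protein is degraded by the proteasome, moved or built into a signalling complex. Deubiquitinases remove it again. The OTU enzymes are cysteine proteases, many of which prefer chains of a particular linkage. They fall into the otubains (OTUB1 and OTUB2), the larger OTUD branch (here OTUD1, OTUD3, OTUD4, OTUD5, OTUD6B and YOD1) and the A20-like branch (here OTUD7B). Otubains trim chains in the cytoplasm and nucleus and act in DNA damage responses and innate immune signalling.

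Levels are given as the deposited RPKM values (reads per kilobase of counted gene length and per 1000000 reads in genes). In units of 1000000, each library held 38.5 to 48.6 reads in genes. The overexpressed pseudogene SNX29P2 averaged 47.9 ± 7.04 RPKM in its own group and 0.0304 ± 0.0336 RPKM with the vector (SD, n = 3 each). The keratin genes KRT8 and KRT18 were at 25.7 to 36.5 and 101 to 147 RPKM, while EPCAM and KRT19 were at most 0.0560 RPKM in any library. Of the ovarian markers, WT1 was at 0.524 to 1.37 RPKM and PAX8 at 0.149 to 0.421 RPKM, and NAPSA was at most 0.0270 RPKM. Of the leukocyte markers measured, PTPRC, CD3E and LYZ stood at 0.332, 0.282 and 4.22 RPKM in OTUB2 library 1, against at most 0.00506, 0 and 0.213 RPKM in the 8 other libraries. CD68 was at 28.6 to 35.3 RPKM throughout, and of the endothelial markers CDH5 was at 17.6 to 23.6 RPKM with VWF at most 0.00408 RPKM and PECAM1 at most 0.125 RPKM. The mitochondrial transcripts MT-CO1, MT-CO2, MT-CYB and MT-ND4 had log2 differences of -0.24 to -0.17 for OTUB2 against vector. For SNX29P2 against vector they were -0.18 to -0.13, and none was called in either. All but MT-ND4 were lower in every OTUB2 and SNX29P2 library than in every vector library. Of all tested genes, 10.8% did not overlap for OTUB2 against vector and 11.7% for SNX29P2 against vector. Mitochondrial reads were 4.45 to 4.96% of reads in genes in OTUB2 and SNX29P2 libraries and 4.97 to 5.23% in vector libraries. The cause was not tested. Since library 1 of the OTUB2 group stands apart in leukocyte transcripts, log2 differences of members in the OTUB2 group are also given without it below, singly or as a range. The sums, gaps and gene lists below include this library and were not recomputed without it.

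The family is named for a shared catalytic domain, whose active-site cysteine lies in the residue pattern Asp-Gly-X-Cys, X being any residue. In the coding sequences of GENCODE release 29 (GRCh38), 8 of the 9 genes hold the codons of this pattern in frame once each, as do 712 of 19488 genes with a complete coding sequence (3.65%). YOD1 lacks it and was searched for Asp-X-X-Cys-Leu-Phe, a pattern chosen after the first gave no match, which it holds once. The stretches below are shown to compare the members around the residue that defines the family: each is 33 bases of the coding strand, 5′ to 3′, with the cysteine codon in capitals. OTUD6B is among the 8 genes with the pattern, and its stretch is not shown.
OTUB1: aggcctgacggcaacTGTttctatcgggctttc
OTUB2: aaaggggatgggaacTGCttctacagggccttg
OTUD1: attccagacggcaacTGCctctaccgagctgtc
OTUD3: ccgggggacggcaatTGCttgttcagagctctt
OTUD4: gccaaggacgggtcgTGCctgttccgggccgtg
OTUD5: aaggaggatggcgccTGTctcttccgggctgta
OTUD7B: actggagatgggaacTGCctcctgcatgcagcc
YOD1: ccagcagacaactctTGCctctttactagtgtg

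The capitals mark codon 91 in exon 5 of OTUB1 (chr11:63996581-63996583, plus strand) and codon 51 in exon 3 of OTUB2 (chr14:94039014-94039016, plus strand). In the OTUD branch they mark codon 320 in exon 1 of OTUD1 (chr10:23440415-23440417, plus strand), codon 76 in exon 2 of OTUD3 (chr1:19890389-19890391, plus strand), codon 45 in exon 1 of OTUD4 (chr4:145179839-145179841, minus strand) and codon 224 in exon 2 of OTUD5 (chrX:48944206-48944208, minus strand). They mark codon 160 in exon 2 of YOD1 (chr1:207049587-207049589, minus strand) and codon 194 in exon 5 of OTUD7B (chr1:149965799-149965801, minus strand). When the coding sequences of OTUB2 (702 bases) and OTUB1 (813 bases) were aligned, they were identical at 447 of the 671 bases aligned without a gap (66.6%). The longest run of bases shared exactly between the OTUB2 coding sequence and a transcript of OTUB1 was 14, and for the 7 other members it was 10 to 14. Other pairs of members, and the noncoding bases of OTUB2, were not compared.

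In vector cells the 9 levels spanned the range from 0.890 RPKM for OTUD1 to 27.5 RPKM for OTUB1. OTUB1 had the highest mean, followed by OTUD5, OTUD6B, OTUD4, OTUD7B, YOD1, OTUD3, OTUB2 and OTUD1. OTUB1 lay above 88.5% of tested genes, OTUD5 above 83.3%, OTUB2 above 17.4% and OTUD1 above 12.5%. The libraries of neighbouring genes in this order overlapped for OTUD6B and OTUD4, for OTUD7B, YOD1 and OTUD3, and for OTUB2 and OTUD1, so those neighbours were not separated by their spread. In SNX29P2 cells the order differed in that YOD1 stood above OTUD7B, and OTUD6B and OTUD4 were the only neighbours whose libraries overlapped. In OTUB2 cells OTUB2 moved to the top of the order.

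**Figure D1:**
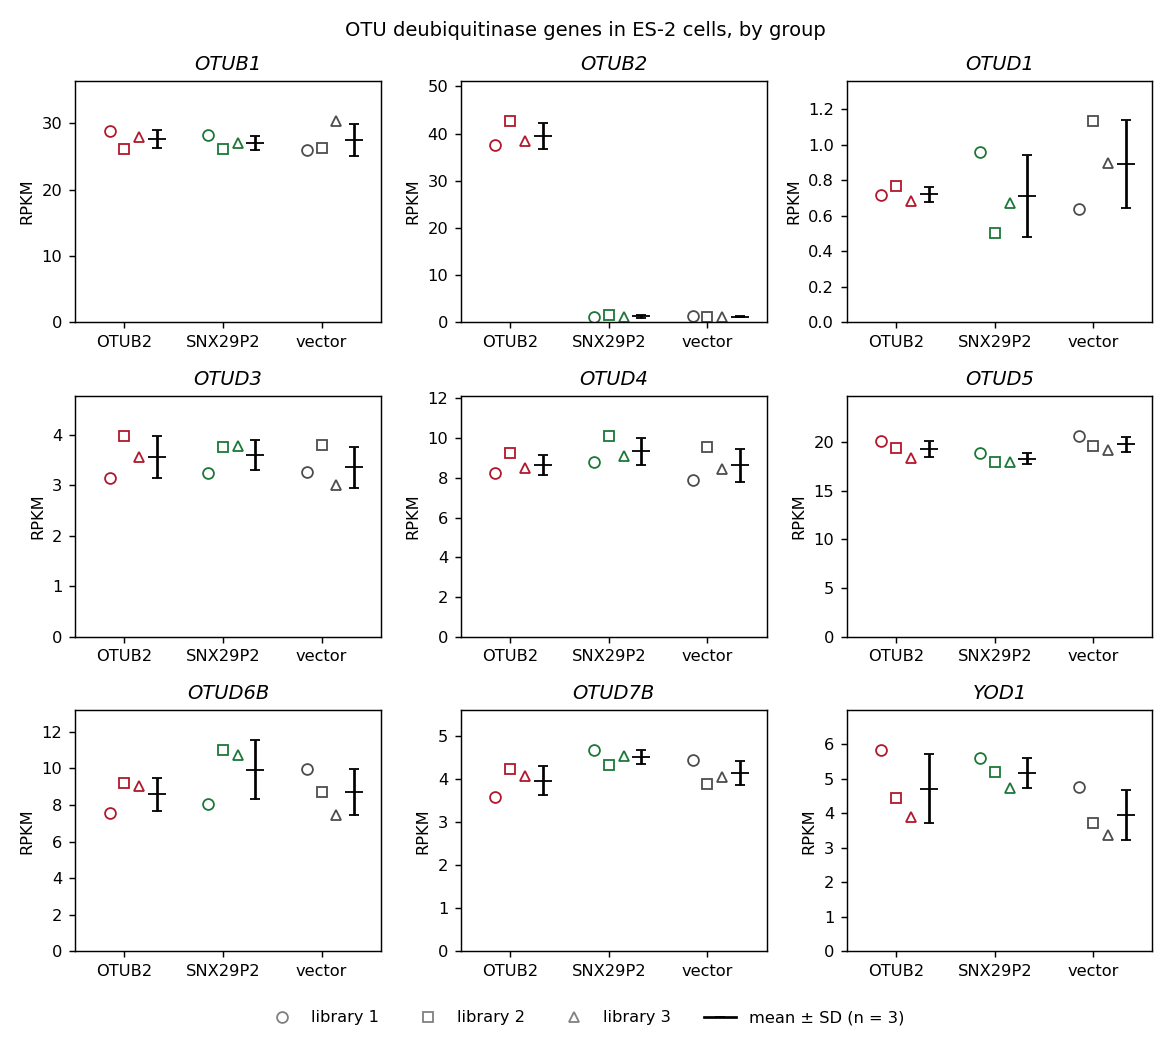
RPKM of the 9 genes (vertical axes, each starting at 0) in OTUB2, SNX29P2 and vector libraries; points are single libraries, shaped by library number, and bars are the mean ± SD of 3 libraries. OTUB2 is at 37.6 to 42.6 RPKM in its own group and at most 1.58 RPKM elsewhere, while OTUB1, for example, is at 26.0 to 30.3 RPKM over all 3 groups.

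OTUB2, an otubain that cleaves ubiquitin chains and has been described to stabilise the transcriptional coactivators YAP1 and WWTR1 (TAZ), is annotated at chr14:94026329-94048930 on the plus strand. It had 37.6, 42.6 and 38.4 RPKM in OTUB2 libraries 1 to 3, against 1.05, 1.58 and 1.08 RPKM in SNX29P2 libraries and 1.31, 1.16 and 1.04 RPKM in vector libraries. All 3 OTUB2 libraries lay far above the 6 others, and the SNX29P2 and vector libraries overlapped. The values rest on 6517 to 8798 reads per OTUB2 library, 205 to 269 per SNX29P2 library and 183 to 237 per vector library. OTUB2 rose by 4.97 on the log2(RPKM + 0.1) scale in OTUB2 cells relative to vector cells (SE 0.151, 95% interval 4.63 to 5.31, limma adjusted p = 6.48e-07), a 31.3-fold difference on that scale. Relative to SNX29P2 cells it rose by 4.91 (SE 0.151, 95% interval 4.57 to 5.25, limma adjusted p = 2.41e-07). With a pseudocount of 1 RPKM these log2 differences were 4.22 and 4.19, and without OTUB2 library 1 they were 5.003 and 4.945 (limma adjusted p = 1.64e-05 and 6.04e-06).

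OTUB2 was the only one of the 9 genes called at an adjusted p under 0.05 in OTUB2 against vector cells, where 0.0181% of all tested genes were called, and in OTUB2 against SNX29P2 cells, where 0.0242% were. Its rise was set by the overexpression, so these calls only check the labels. The count behind the first share was 3 genes; it was 1 without any single OTUB2 library or without vector library 1, and 8 without vector library 3. In SNX29P2 against vector cells OTUB2 differed by 0.06 on the log2 scale (95% interval -0.28 to 0.40, limma adjusted p = 0.951), an interval whose upper end is 1.32-fold. Expressed as reads per 1000000 reads in genes, OTUB2 took 160, 181 and 163 in OTUB2 libraries, against 4.47, 6.74 and 4.58 in SNX29P2 libraries and 5.55, 4.93 and 4.43 in vector libraries.

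Features of the OTUB2 gene model bear on what its level counts. The RPKM values divide by 4252 counted bases, of which the 702 coding bases of the annotated transcript are 16.5%. The labels do not say which bases the construct carried, and the files hold 1 value per gene, so reads from the construct and from the cell's own gene cannot be told apart. The last 640 counted bases, 15.1% of the length, also belong to exons of DDX24, an RNA helicase gene on the opposite strand (chr14:94048291-94081245). How the counting treated strand is not given in the sources used here, so reads in that stretch cannot be assigned to either gene. DDX24 was at 25.5 ± 0.548 RPKM in OTUB2 cells, 25.4 ± 0.165 RPKM in SNX29P2 cells and 24.3 ± 1.25 RPKM in vector cells (SD, n = 3 each). Its log2 difference was 0.07 for OTUB2 against vector (limma adjusted p = 0.893).

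With the construct, OTUB2 made up 32.5, 35.5 and 33.5% of the summed RPKM of the 9 genes in OTUB2 libraries, against 1.32, 1.97 and 1.35% in SNX29P2 libraries and 1.66, 1.49 and 1.34% in vector libraries. The level of OTUB2 relative to OTUB1, both per length, was 1.43 ± 0.170 in OTUB2 cells, 0.0460 ± 0.0129 in SNX29P2 cells and 0.0429 ± 0.00807 in vector cells (SD, n = 3 each). OTUB2 was above OTUB1 in all 3 OTUB2 libraries and below it in the 6 others. OTUB1 shares counted bases with another gene, AP000721.4, as given below, so this ratio and the shares carry that limit. Summed over the 8 other genes, the level was 78.0, 77.4 and 76.1 RPKM in OTUB2 libraries, 78.4, 78.9 and 78.5 RPKM in SNX29P2 libraries and 77.5, 76.6 and 76.7 RPKM in vector libraries. The OTUB2 and vector libraries overlapped in this sum. The SNX29P2 libraries lay above both, but narrowly: their lowest sum was 78.4 RPKM and the highest OTUB2 sum 78.0 RPKM. Median-of-ratios size factors ran from 0.979 for vector library 3 to 1.02 for vector library 1, a wider range than this margin. The sum was not recomputed with them, so this order may depend on scaling.

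**Figure D2:**
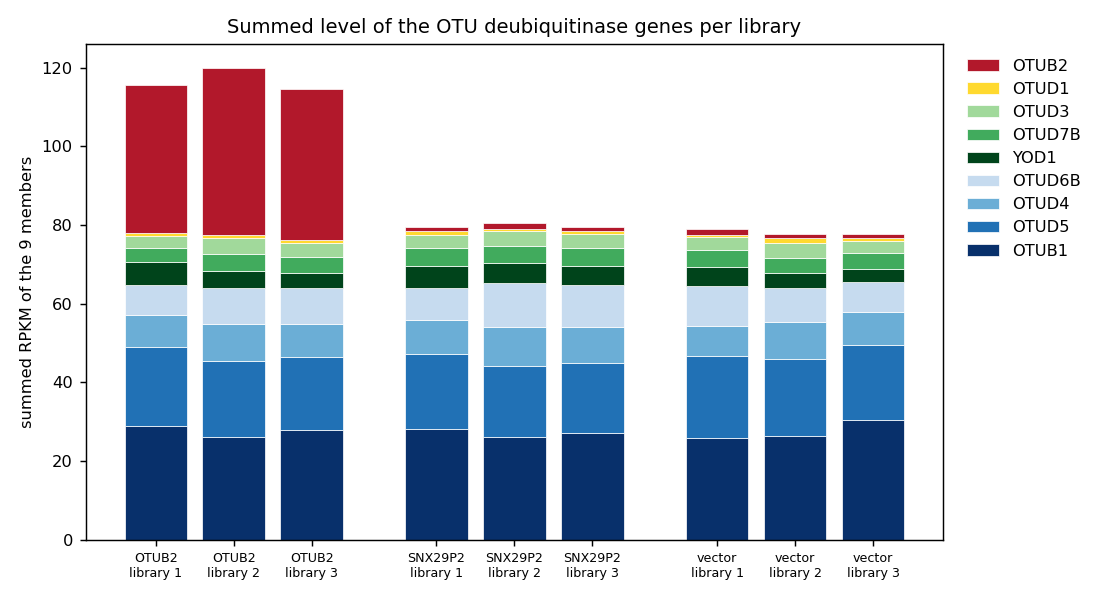
Summed RPKM of the 9 genes (vertical axis) in each of the 9 libraries, stacked by gene, with OTUB2 libraries at the left, SNX29P2 libraries in the middle and vector libraries at the right. The stacks reach 114 to 120.0 RPKM in OTUB2 libraries, 79.5 to 80.5 RPKM in SNX29P2 libraries and 77.7 to 78.8 RPKM in vector libraries, and the top block, OTUB2, holds most of that difference.

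OTUB1, the abundant otubain that also binds ubiquitin-conjugating enzymes such as UBE2N and blocks them without cleaving ubiquitin, is annotated at chr11:63985853-64001811 on the plus strand. It had 28.8, 26.2 and 28.0 RPKM in OTUB2 libraries, 28.2, 26.1 and 27.0 RPKM in SNX29P2 libraries and 26.0, 26.3 and 30.3 RPKM in vector libraries. The 3 groups overlapped, with vector library 3 the highest of all. Its log2 difference was 0.01 for OTUB2 against vector (SE 0.0757, 95% interval -0.16 to 0.18, limma adjusted p = 0.992). That interval spans 0.896-fold to 1.13-fold. For SNX29P2 against vector the log2 difference was -0.02 (limma adjusted p = 0.973). A same-strand neighbour, AP000721.4, shares 384 of the 5336 counted bases of OTUB1 (7.20%). It was at 288 RPKM in OTUB2 cells, 278 RPKM in SNX29P2 cells and 266 RPKM in vector cells, far above OTUB1. Reads in these shared bases cannot be assigned to either gene, and how the counting treated them is not given. The level, rank and percentile of OTUB1 may thus include reads of AP000721.4, and the size of that part was not tested.

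OTUD5 was the OTUD gene with the highest level. It encodes the enzyme also named DUBA, known for trimming ubiquitin from the adaptor TRAF3 and damping interferon production, and is annotated at chrX:48922028-48958386 on the minus strand. It had 20.1, 19.3 and 18.4 RPKM in OTUB2 libraries, 18.9, 18.0 and 17.9 RPKM in SNX29P2 libraries and 20.6, 19.6 and 19.1 RPKM in vector libraries. Every SNX29P2 library lay below every vector library, and the OTUB2 libraries overlapped both. The log2 difference was -0.11 for SNX29P2 against vector (SE 0.0625, 95% interval -0.25 to 0.03, limma adjusted p = 0.686) and -0.04 for OTUB2 against vector (95% interval -0.18 to 0.10, limma adjusted p = 0.960). OTUD5 was the only one of the 9 genes whose SNX29P2 and vector libraries did not overlap, where 11.7% of all tested genes did not. A share of 1 in 9 is close to that background.

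YOD1 encodes a partner of the segregase VCP that removes ubiquitin from proteins drawn out of the endoplasmic reticulum for degradation, and is annotated at chr1:207043849-207052980 on the minus strand. It had 5.83, 4.45 and 3.89 RPKM in OTUB2 libraries, 5.61, 5.20 and 4.73 RPKM in SNX29P2 libraries and 4.77, 3.74 and 3.38 RPKM in vector libraries. Library 1 was the highest and library 3 the lowest in every group, and the groups overlapped. The log2 difference for SNX29P2 against vector was 0.39 (SE 0.165, 95% interval 0.02 to 0.76), or 1.31-fold, with an unadjusted limma p of 0.0409 and an adjusted p of 0.591. It was the only one of the 9 genes at an unadjusted p under 0.05 in that comparison, where 8.21% of all tested genes were. None of the 9 genes was called at an adjusted p under 0.05 there, where 0.0363% of tested genes were called.

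For OTUB2 against vector the log2 difference of YOD1 was 0.24 (95% interval -0.13 to 0.61, limma adjusted p = 0.846). Without OTUB2 library 1, which held the highest YOD1 level and the leukocyte transcripts, it was 0.08 (limma adjusted p = 0.998). It was 0.38 without vector library 1 (limma adjusted p = 0.735, unadjusted p = 0.0461) and 0.37 without OTUB2 library 3 (limma adjusted p = 0.999). The part of leukocyte transcripts in this value was not tested. Exons of PFKFB2, a gene on the opposite strand that encodes a regulator of glycolysis, share 315 of the 6521 counted bases of YOD1 (4.83%). PFKFB2 had 1.02, 0.697 and 0.562 RPKM in OTUB2 libraries, 0.928, 0.823 and 0.700 RPKM in SNX29P2 libraries and 0.965, 0.863 and 0.591 RPKM in vector libraries. PFKFB2 was thus also highest in library 1 and lowest in library 3 of each group, as YOD1 was. Over all tested genes, 8.93% had number 1 highest in every group. Reads in the shared stretch cannot be assigned to either gene, and their part in the order of YOD1 libraries was not tested.

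OTUD4, described as a scaffold that brings USP7 and USP9X to the DNA repair enzymes ALKBH2 and ALKBH3, is annotated at chr4:145110838-145180161 on the minus strand. It had 8.25, 9.23 and 8.48 RPKM in OTUB2 libraries, 8.79, 10.1 and 9.09 RPKM in SNX29P2 libraries and 7.87, 9.54 and 8.46 RPKM in vector libraries. Library 2 was the highest and library 1 the lowest in each group, and the groups overlapped. Its log2 difference was 0.01 for OTUB2 against vector (95% interval -0.20 to 0.22, limma adjusted p = 0.996) and 0.11 for SNX29P2 against vector (95% interval -0.09 to 0.32, limma adjusted p = 0.791). ABCE1, a ribosome recycling factor gene on the opposite strand, shares 276 of its 9085 counted bases (3.04%), where reads cannot be assigned to either gene. ABCE1 itself averaged 34.5 ± 1.80 RPKM in SNX29P2 cells and 29.3 ± 0.366 RPKM in vector cells (SD, n = 3 each; limma adjusted p = 0.488).

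OTUD6B, a gene whose loss-of-function variants cause a developmental disorder, is annotated at chr8:91070196-91087095 on the plus strand. It had 7.56, 9.19 and 9.05 RPKM in OTUB2 libraries, 8.08, 11.0 and 10.7 RPKM in SNX29P2 libraries and 9.99, 8.69 and 7.46 RPKM in vector libraries. The libraries of a group were spread so widely that all groups overlapped. The log2 difference was -0.01 for OTUB2 against vector (95% interval -0.34 to 0.31, limma adjusted p = 0.995) and 0.18 for SNX29P2 against vector (95% interval -0.14 to 0.51, limma adjusted p = 0.785). The second value was 0.32 without SNX29P2 library 1 (95% interval 0.02 to 0.63, limma adjusted p = 0.477) and 0.08 without vector library 3 (limma adjusted p = 0.905). Library 1 was the lowest in the OTUB2 and SNX29P2 groups and the highest in the vector group.

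OTUD3, another chain-cleaving enzyme of the OTUD branch, is annotated at chr1:19882513-19912945 on the plus strand. It had 3.15, 3.98 and 3.56 RPKM in OTUB2 libraries, 3.25, 3.76 and 3.77 RPKM in SNX29P2 libraries and 3.27, 3.79 and 3.01 RPKM in vector libraries. The groups overlapped, and the log2 differences against the vector were 0.09 for OTUB2 and 0.10 for SNX29P2 (SE 0.122, limma adjusted p = 0.942 and 0.878).

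OTUD1, a single-exon gene whose product prefers a signalling type of chain and has been described to act on SMAD7, is annotated at chr10:23439458-23442390 on the plus strand. It had 0.715, 0.765 and 0.683 RPKM in OTUB2 libraries, 0.959, 0.504 and 0.672 RPKM in SNX29P2 libraries and 0.639, 1.13 and 0.899 RPKM in vector libraries. The OTUB2 libraries sat close together inside the range of both other groups. These levels rest on 59 to 129 reads per library. Counting error alone gives a coefficient of variation of 10.5% in OTUB2 cells, 10.7% in SNX29P2 cells and 9.87% in vector cells, and the observed ones were 5.76, 32.4 and 27.8% in that order of groups. Its log2 difference was -0.24 for OTUB2 against vector (95% interval -0.83 to 0.35, limma adjusted p = 0.920) and -0.29 for SNX29P2 against vector (95% interval -0.88 to 0.29, limma adjusted p = 0.817). The first interval runs from 0.563-fold to 1.27-fold. Leaving out single libraries moved the log2 difference for SNX29P2 against vector to between -0.51 (without SNX29P2 library 1) and -0.10 (without SNX29P2 library 2), and that for OTUB2 against vector to between -0.44 (without vector library 1) and -0.07 (without vector library 2).

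OTUD7B, the A20-like enzyme also named Cezanne, which acts on cell cycle and inflammatory signalling proteins, is annotated at chr1:149937812-150010676 on the minus strand. It had 3.58, 4.22 and 4.06 RPKM in OTUB2 libraries, 4.66, 4.32 and 4.53 RPKM in SNX29P2 libraries and 4.43, 3.89 and 4.05 RPKM in vector libraries. All 3 OTUB2 libraries lay below all 3 SNX29P2 libraries, and the vector libraries overlapped both. The log2 difference was -0.18 for OTUB2 against SNX29P2 (SE 0.0919, 95% interval -0.39 to 0.02, limma adjusted p = 1.00), and -0.12 without OTUB2 library 1. Against the vector the log2 differences were -0.06 for OTUB2 and 0.13 for SNX29P2 (limma adjusted p = 0.951 and 0.763). OTUB2 and OTUD7B were the 2 of 9 genes whose OTUB2 and SNX29P2 libraries did not overlap, where 8.35% of all tested genes did not. OTUB2 is the gene overexpressed in its group, so its separation from the other groups was set by the design. That leaves 1 of the 8 other genes, OTUD7B, to be held against the background. In OTUB2 against vector, OTUB2 was the only one of the 9 without overlap, where 10.8% of all tested genes had none.

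Set side by side, the 8 genes other than OTUB2 had log2 differences of -0.24 to 0.24 for OTUB2 against vector, 4 of them positive, with a median of -0.00 where all tested genes had 0.01. For SNX29P2 against vector the 8 ranged from -0.29 to 0.39, 5 of them positive, with a median of 0.11 where all tested genes had 0.01. These comparisons share the vector libraries. For OTUB2 against SNX29P2 the 8 ranged from -0.20 for OTUD6B to 0.08 for OTUD5, 3 of them positive, with a median of -0.06 where all tested genes had -0.00. No adjusted p of the 8 was under 0.591 in any comparison. Without OTUB2 library 1, the 8 ranged from -0.24 for OTUD1 to 0.17 for OTUD3 for OTUB2 against vector, and from -0.31 for YOD1 to 0.07 for OTUD3 for OTUB2 against SNX29P2, with no limma adjusted p under 0.991. The 95% intervals reached 0.14 on either side of the estimate for OTUD5, the most precise, and 0.59 for OTUD1, the least precise.

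**Figure D3:**
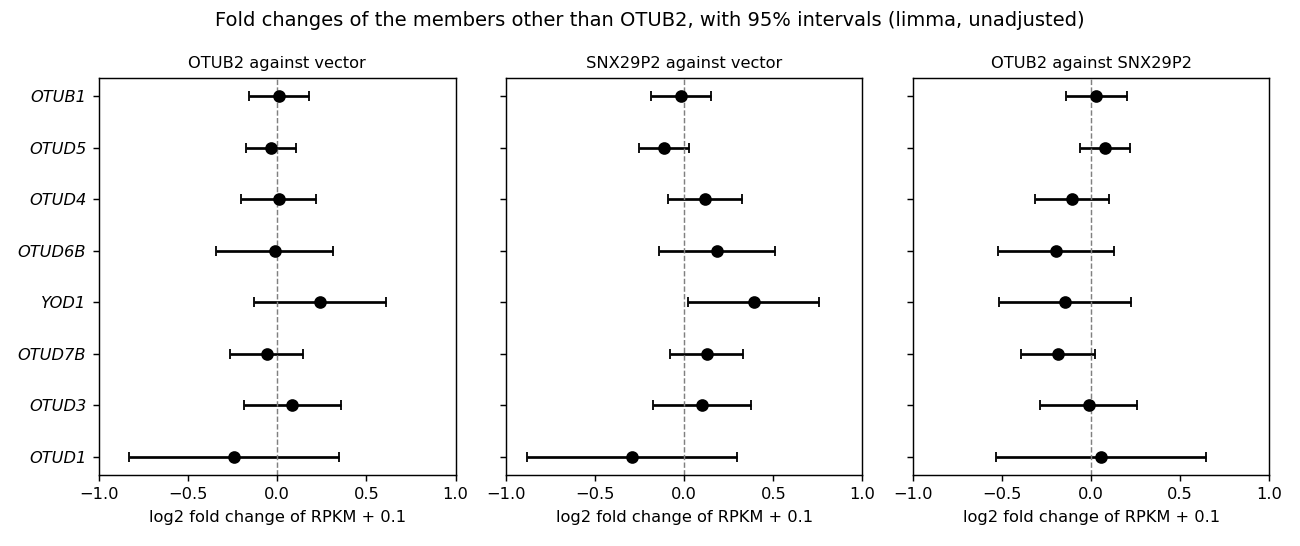
Log2 differences of RPKM + 0.1 (horizontal axes) with unadjusted 95% limma intervals for the 8 genes other than OTUB2, one panel per comparison, with genes ordered by their level in OTUB2 cells, highest at the top. The interval of YOD1 in SNX29P2 against vector, 0.02 to 0.76, is the only one of the 24 that does not include 0, and OTUD1 has the widest interval in every panel.

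Within groups the genes differed in how much they varied. OTUD5 had coefficients of variation of 4.51% in OTUB2 cells, 3.02% in SNX29P2 cells and 3.87% in vector cells. YOD1 had 21.2, 8.45 and 18.2% in the same order of groups, where counting error alone gives 2.77, 2.59 and 3.11%. The same library number was highest in all 3 groups for 3 of the 9 genes, OTUD4 (number 2), OTUD5 (number 1) and YOD1 (number 1). The same number was also lowest in all groups for these 3 genes. Over all tested genes, 27.7% had the same number highest in every group, so 3 of 9 is near the background. The numbers come from the sample titles, and the labels do not say what they stand for.

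**Figure D4:**
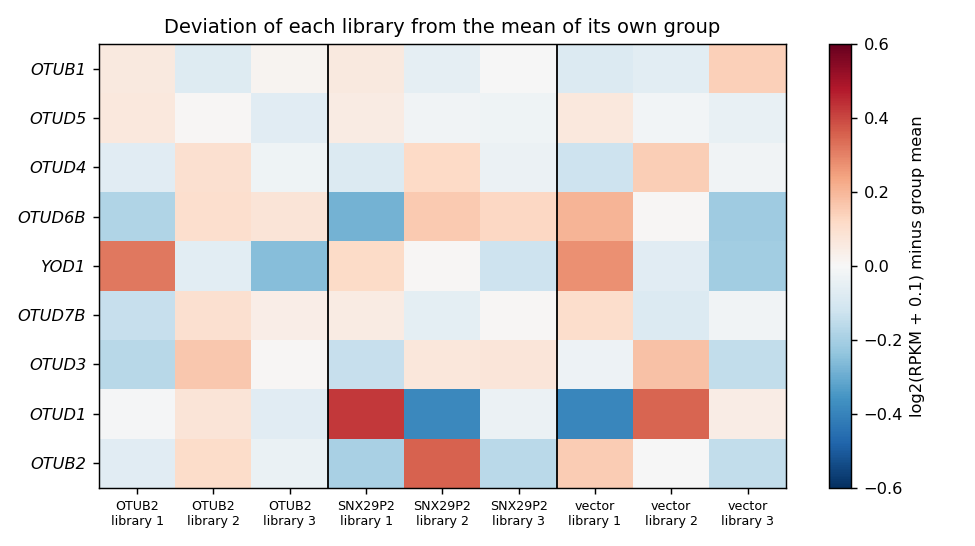
Deviation of each library from the mean of its own group on the log2(RPKM + 0.1) scale (colour), for the 9 genes (rows) in OTUB2, SNX29P2 and vector libraries (columns, from left to right). YOD1 is above its group mean in library 1 and below it in library 3 of each group, and OTUD1 shows deviations from -0.39 to 0.42.

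The pattern of OTUB2 over the 9 libraries was compared with that of other genes by the gap between the lowest OTUB2 library and the highest of the 6 others. In 166 of 16533 tested genes (1%) all 3 OTUB2 libraries lay above the 6 others. The gap of OTUB2 was 4.48 on the log2 scale, and the genes next in order with at least 1 RPKM had gaps of 0.31 for TMEM175, 0.28 for SNORD117 and 0.27 for FAM27C. TMEM175, a lysosomal ion channel gene, had 2.88, 2.79 and 2.81 RPKM in OTUB2 libraries, against 2.10, 1.96 and 2.22 RPKM in SNX29P2 libraries and 2.03, 1.61 and 2.24 RPKM in vector libraries. SNORD117 had 4.03, 1.63 and 1.98 RPKM in OTUB2 libraries, against 0.287, 1.32 and 0.836 RPKM in SNX29P2 libraries and 0.925, 0 and 0.955 RPKM in vector libraries. Its gap thus rests on low and scattered values. FAM27C had at least 4.17 RPKM in each OTUB2 library, against 3.05, 3.37 and 3.44 RPKM in SNX29P2 libraries and 2.66, 2.19 and 3.42 RPKM in vector libraries. None of the 8 other members had such a gap: their values ran from -0.17 for OTUD5 to -0.66 for OTUD1. The genes were picked for this pattern, which is therefore a description without a test.

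Of the other OTU genes, OTULIN, which removes linear ubiquitin chains, was at 3.76 ± 0.228 RPKM in OTUB2 cells, 3.83 ± 0.196 RPKM in SNX29P2 cells and 3.52 ± 0.607 RPKM in vector cells (SD, n = 3 each). TNFAIP3, which encodes the inflammatory brake A20, was at 3.54 ± 0.867, 3.53 ± 0.871 and 4.06 ± 0.473 RPKM in the same order of groups, and its log2 difference against the vector was -0.22 in both cases. ZRANB1 and ALG13 were at 6.03 to 6.72 and 3.89 to 4.79 RPKM over all libraries, and OTULINL (listed as FAM105A) at 0.343 to 0.608 RPKM. VCPIP1, another partner of VCP, was at 3.01 ± 0.0440 RPKM in OTUB2 cells, 3.56 ± 0.475 RPKM in SNX29P2 cells and 3.13 ± 0.0546 RPKM in vector cells. OTUD7A was at most 0.0611 RPKM and was not tested. In the 3 comparisons 0 of the 6 tested genes passed the test, by limma on RPKM or by voom on the recovered reads, or had an unadjusted p under 0.05. Of all tested genes, limma on RPKM called 0.0181% for OTUB2 against vector, 0.0363% for SNX29P2 against vector and 0.0242% for OTUB2 against SNX29P2. An unadjusted limma p under 0.05 was held by 6.73, 8.21 and 2.43% in that order, so 0 of 6 is near the background.

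Among described partners and substrates of OTU enzymes, 0 of 28 tested genes passed the test in any comparison, by limma on RPKM or by voom on the recovered reads. Of all tested genes, limma on RPKM called 0.0181% for OTUB2 against vector and 0.0363% for SNX29P2 against vector. The share was 0.0242% for OTUB2 against SNX29P2, so 0 of 28 is near the background. At an unadjusted p under 0.05 there were 0 for OTUB2 against vector, 2 for SNX29P2 against vector and 0 for OTUB2 against SNX29P2, where 6.73, 8.21 and 2.43% of all tested genes had one. For OTUB2 against vector 17 of the 28 had a positive log2 difference, with a median of 0.01, and for SNX29P2 against vector 21 did, with a median of 0.07. YAP1, described as a target of OTUB2, was at 78.8 ± 4.78 RPKM in OTUB2 cells, 82.0 ± 6.85 RPKM in SNX29P2 cells and 80.5 ± 4.41 RPKM in vector cells (SD, n = 3 each). UBE2N, the conjugating enzyme bound by OTUB1, was at 22.1 ± 1.59, 22.7 ± 1.60 and 20.7 ± 0.534 RPKM in the same order of groups. UBE2V2, its cofactor, had the smallest p of this list for SNX29P2 against vector, at 12.1 ± 1.64 RPKM in SNX29P2 cells and 9.82 ± 0.192 RPKM in vector cells, a log2 difference of 0.29 (limma adjusted p = 0.559). UBE2D3, a conjugating enzyme of broad use, came next with a log2 difference of 0.14 (limma adjusted p = 0.589). For OTUB2 against vector the smallest p values were those of UFD1 (listed as UFD1L), a cofactor of VCP, with a log2 difference of 0.17, and of ALKBH3, with -0.15 (limma adjusted p = 0.788 and 0.817). For OTUB2 against SNX29P2 they were those of UBE2D1 and UBE2E1, conjugating enzymes too, with -0.36 and -0.14 (limma adjusted p = 1.00 for both).

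The genes for ubiquitin itself were likewise not called by either limma fit, and 0 of the 6 in the list had an unadjusted p under 0.05. Both are near the shares over all tested genes, where at most 0.0363% were called by limma on RPKM. An unadjusted p under 0.05 was held by at most 8.21%, each in SNX29P2 against vector. UBB was at 479 ± 44.8 RPKM in OTUB2 cells, 451 ± 54.8 RPKM in SNX29P2 cells and 424 ± 25.1 RPKM in vector cells (SD, n = 3 each). Of the 6 ubiquitin and activating enzyme genes, 5 had a positive log2 difference for OTUB2 against vector and 3 for SNX29P2 against vector.

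Over the 6 lists of other deubiquitinase families together, 72 of 84 listed genes were tested. The lists follow family membership, so the counts need not describe active deubiquitinases only. Of the 72, 0 passed the test in any comparison, by limma on RPKM or by voom on the recovered reads. Limma on RPKM called 0.0181% of all tested genes for OTUB2 against vector and 0.0363% for SNX29P2 against vector. For OTUB2 against SNX29P2 it called 0.0242%. With shares that low, 0 calls do not set these families apart from other genes. For OTUB2 against vector 39 of the 72 had a positive log2 difference and 3 an unadjusted p under 0.05, where 6.73% of all tested genes had one. The extremes were USP35, at 1.14 ± 0.169 RPKM in OTUB2 cells and 1.51 ± 0.249 RPKM in vector cells (log2 difference -0.37, limma adjusted p = 0.733), and STAMBPL1, at 5.40 ± 0.527 and 4.49 ± 0.516 RPKM in the same order (0.26, limma adjusted p = 0.707). For SNX29P2 against vector 51 of the 72 were positive and 1 had an unadjusted p under 0.05, where 8.21% of all tested genes had one. That gene was MPND, at 2.31 ± 0.182 RPKM in SNX29P2 cells and 3.24 ± 0.189 RPKM in vector cells (log2 difference -0.47, limma adjusted p = 0.488). For OTUB2 against SNX29P2 25 of the 72 were positive and 3 had an unadjusted p under 0.05, where 2.43% of all tested genes had one. These were USP16 with a log2 difference of -0.20, MPND with 0.27 and MINDY2 (listed as FAM63B) with -0.34. The median log2 difference of the 72 was 0.00, 0.05 and -0.04 in these comparisons, in the order given. The 72 include the 6 other OTU genes above. The share of positive log2 differences over all tested genes was not counted, so the counts of positive genes in the lists have no background.

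By family, the ubiquitin-specific proteases (USP) had 22 of 42 positive log2 differences for OTUB2 against vector and 31 for SNX29P2 against vector. Their smallest p values were those of USP35, above, and USP54 (-0.15) in the first comparison, and of USP11 (-0.15) and USP7 (0.15) in the second (limma adjusted p = 0.828, 0.628 and 0.630 for the last 3). The ubiquitin C-terminal hydrolases had positive log2 differences for all 4 genes in both comparisons, which share the vector libraries. They were led by UCHL3 (0.14) and BAP1 (0.10) in the first and by UCHL5 (0.19) and UCHL3 (0.20) in the second. In either comparison 0 of the 4 had an unadjusted limma p under 0.05. The limma adjusted p of these 4 values was 0.842, 0.859, 0.621 and 0.636. Of the 3 Josephin genes tested, JOSD2 and JOSD1 had the smallest p values, with 0.06 and -0.01 in the first comparison and -0.11 and -0.08 in the second. Of the 12 genes listed as JAMM metalloproteases, 8 were positive in the first comparison and 9 in the second. The list follows a shared domain, and its genes need not all encode active proteases. PSMD14, the deubiquitinase of the proteasome lid, was at 0.20 in the first and BRCC3 at 0.15 in the second (limma adjusted p = 0.724 and 0.622). Of the 5 MINDY and ZUP1 genes, 1 was positive in the first comparison and 3 in the second. MINDY3 (listed as FAM188A) and MINDY2 had -0.19 and -0.08 in the first, and MINDY2 and ZUP1 (listed as ZUFSP) had 0.26 and 0.17 in the second, none called.

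**Figure D5:**
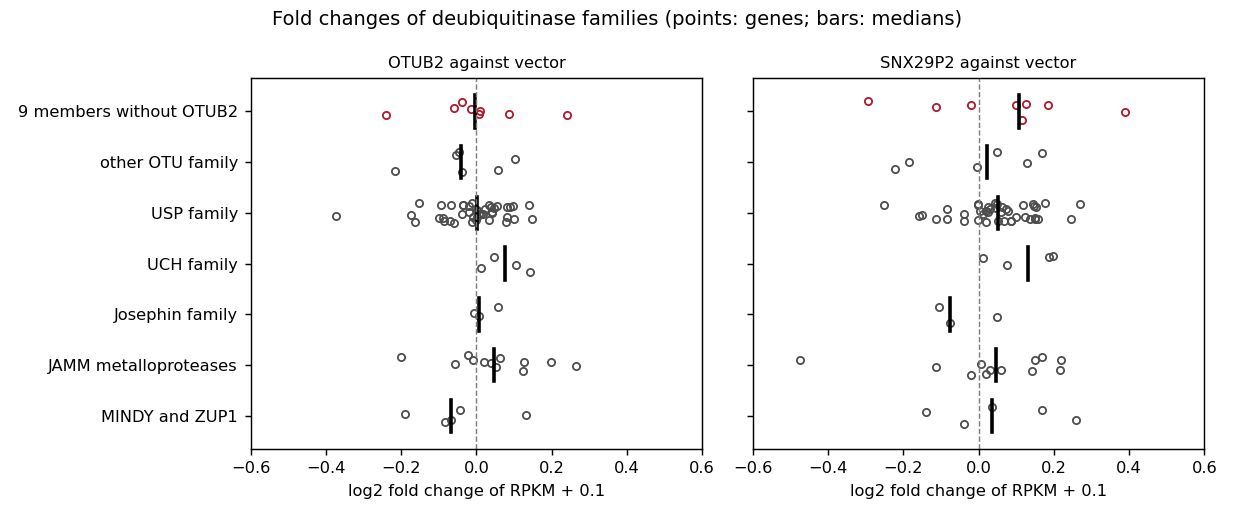
Log2 differences of RPKM + 0.1 (horizontal axes) of single genes (points) with the median of each family (bars), for OTUB2 against vector at the left and SNX29P2 against vector at the right. The 8 members other than OTUB2 (top, -0.24 to 0.24 and -0.29 to 0.39) lie among the genes of the other deubiquitinase families, whose extremes are USP35 at -0.37 at the left and MPND at -0.47 at the right.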

How the data were processed

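RNA-seq libraries of ES-2 cells were prepared from TRIzol-extracted total RNA by an Illumina protocol, per the labels' protocols. The authors deposited 1 table of RPKM values for 32997 genes with exon positions and counted lengths, per the file headers, on the build GRCh38 (per the submitters' processing notes). For the aligner, the counter, its strand setting and the annotation, the sources used here give no name. Below 1000 reads, 100% of values were whole multiples of 1 read within 0.05 reads, so whole reads were recovered. Of these, 58.1 to 60.4% per library were even, so reads need not be independent molecules, and counting errors cover counting only. Groups followed the genotype labels.

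The 16533 genes that reached 0.5 RPKM in 3 or more libraries were tested on log2(RPKM + 0.1) by limma 3.58.1 (in R 4.3.3, variance trend on), in 1 fit of all 9 libraries without covariates. Library numbers paired OTUB2 with SNX29P2 libraries by the correlation of their deviations from group means (0.15 to 0.27 over 3 pairs), and a replicate block was an alternative. Tests were two-sided, with Benjamini-Hochberg adjustment over all tested genes and calls under 0.05. Fold changes on this scale understate changes of low genes. The fitting program was tested on simulated data. No count test was made on the RPKM values; limma voom on the recovered reads was an added alternative and called 3 genes for OTUB2 against vector, 10 for SNX29P2 against vector and 4 for OTUB2 against SNX29P2.

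The 9 members and the 8 gene lists (119 entries, 114 matched) were chosen with earlier results of these data known. The rule for named genes took all members, from each list up to 3 called genes or the 2 with the smallest p (given against the vector), the 3 genes with the next largest gaps among those with a mean of at least 1 RPKM, genes sharing counted exons with a member, and SNX29P2. YAP1, UBE2N and the extremes of the deubiquitinase families were named outside this rule, after their values were seen. Sequences were read with biopython 1.88 from GENCODE release 29. Other software was matplotlib 3.10.9, numpy 2.4.6, pandas 2.3.3 and python 3.11.15. CDH1, MUC16 and OTUD6A were not analysed here, and some genes the rule took are not reported here.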

Additional observations from a re-analysis of the deposited data

How the results depend on the processing

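OTUB2 was the 1 member called against the vector and against SNX29P2, and no member was called for SNX29P2 against vector, under every alternative run; OTUD1 was not tested under a filter of 1 RPKM in 6 libraries. The log2 difference of OTUB2 ranged from 4.22 to 5.08 against the vector and from 4.19 to 5.09 against SNX29P2. Counts of called genes over the whole table moved more. For OTUB2 against vector (3 genes) the count was 7 without a filter, 1 with only the compared groups, 1 without the libraries numbered 2 (added after seeing the data) and 1 to 8 leaving out single libraries. For SNX29P2 against vector (6 genes) it was 1 under the stricter filter, 10 with voom (added after seeing the data), 3 without the libraries numbered 2 and 4 to 8 leaving out single libraries. For OTUB2 against SNX29P2 (4 genes) it was 1 under the stricter filter and 4 to 5 leaving out single libraries. The cause of these shifts was not tested.

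Of 510 recomputed member log2 differences, 23 changed sign, none of them called. Quantile normalization gave -0.018 for OTUB1 in OTUB2 against vector and 0.0019 for OTUD3 in OTUB2 against SNX29P2. Without the libraries numbered 2, SNX29P2 against vector gave -0.12 for OTUB2 and 0.074 for OTUD1, and OTUB2 against SNX29P2 gave -0.18 for OTUD1. Leaving out single libraries, OTUB2 against vector ranged from -0.029 to 0.082 for OTUB1, -0.056 to 0.082 for OTUD4, -0.12 to 0.089 for OTUD6B and -0.11 to 0.0085 for OTUD7B. SNX29P2 against vector ranged from -0.059 to 0.053 for OTUB1 and -0.12 to 0.15 for OTUB2. OTUB2 against SNX29P2 ranged from -0.00020 to 0.069 for OTUB1, -0.14 to 0.27 for OTUD1 and -0.10 to 0.069 for OTUD3. The cause was not tested. All 108 recomputed member means and 9 shares of OTUB2 moved by less than 1 SD, and 152 genes in place of 166 had all OTUB2 libraries on top after median-of-ratios scaling.

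Libraries of different groups with the same number correlated in their deviations from the group means at -0.018 to 0.27 over 9 pairs. Over 18 pairs with other numbers the correlations were -0.23 to 0.050. Deviations of 3 libraries from their own mean cancel out, so a positive same-number correlation pushes the others down. The 18 pairs are therefore not an independent reference for the 9. All 3 same-number pairs of OTUB2 and SNX29P2 libraries (0.27, 0.26 and 0.15) passed the bound of 0.1 for pairing, so the numbers were taken to pair that comparison. They were not for the vector comparisons, since OTUB2 with vector library 1 gave 0.051 and SNX29P2 with vector library 1 gave -0.018. With the replicate block, 4, 9 and 4 genes were called in the order of comparisons above. OTUB2 rose by 4.97 against the vector and by 4.91 against SNX29P2 (limma adjusted p = 2.76e-05 and 1.50e-05). For OTUB2 against SNX29P2, the smallest unadjusted limma p of the other members was 0.0774, for OTUD4 (-0.11, 95% interval -0.23 to 0.02). OTUD7B came next with 0.0824 (-0.18, 95% interval -0.40 to 0.03), and the adjusted p of both was 0.919. The member values of the Results come from the fit without the block. YOD1 had limma unadjusted p values of 0.0206 for OTUB2 against vector (0.24, 95% interval 0.05 to 0.43) and 0.00193 for SNX29P2 against vector (adjusted p = 0.347 and 0.170 in that order). OTUD5 had an unadjusted limma p of 0.0362 for SNX29P2 against vector (-0.11, 95% interval -0.22 to -0.01, adjusted p = 0.332). Of all 16533 tested genes, 1934 had an unadjusted limma p under 0.05 for OTUB2 against vector with the block. There were 2272 for SNX29P2 against vector and 778 for OTUB2 against SNX29P2. No member call changed. The planned edgeR test was not run, and voom on the recovered reads took its place. OTUD1 had the fewest reads of the 9 genes, 59 to 129 per library.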
